A study of Mus musculus with 3 samples.

Results

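Among 7057 cells of the mouse meninges, the membranes around the brain, 53 carried RNA of the azurophil granule proteins at a level that met a fixed rule, and these 53 cells are described here as azurophil cells. A cell was a droplet barcode with at least 500 UMIs, a number of detected genes within the limits that the study's methods set, and under 8.3% of its UMIs in mitochondrial genes. A UMI is a tag that marks 1 captured RNA molecule, so UMIs count molecules. A cell was kept when *Mpo*, *Elane*, *Prtn3* and *Ctsg* together made up at least 0.5% of its UMIs, when at least 2 of these 4 genes were detected, and when *Camp* and *Ngp*, which encode proteins of the later specific granules, together took under 2%. The measured values of these 6 genes chose the cells, so their levels below are a description, and although they passed through the fits over all genes, no result of a test on them is read. HC replicate 1 (HC 1) held 28 of the azurophil cells among 2599 cells, HC replicate 2 (HC 2) held 7 of 1702, and CSD replicate 1 (CSD) held 18 of 2756. Where 3 values stand together below, they follow this order: HC 1, HC 2, CSD.

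The cells came from male C57BL/6J mice aged 10 to 12 weeks, as 3 single-cell libraries that were each a pool of 4 mice. HC mice stayed unstressed in their home cage, and CSD mice went through 14 days of chronic social defeat and were chosen as stress-susceptible by urine scent marking and open field tests, to which the study adds a social interaction test. Meninges of perfused animals were picked off brain and skull with care to leave skull bone marrow behind, digested, and sorted for live nucleated cells (DAPI- DRAQ5+) before capture in lanes 1, 2 and 3 of the same 10x chip. A second CSD pool was lost at encapsulation, so CSD is 1 library, and an effect of defeat and a trait of that pool cannot be told apart. The libraries held 8814690 to 10206236 UMIs in all. Barcodes with 100 UMIs or fewer, whose RNA mostly floats free in the suspension, took 7.87%, 24.1% and 5.48% of them.

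Azurophil granules, also called primary granules, are the first granules that a developing neutrophil makes. Their contents, among them myeloperoxidase and the serine proteases neutrophil elastase, proteinase 3 and cathepsin G, are transcribed in promyelocytes and in the granulocyte and monocyte progenitors before them, and the genes are shut off as the cell matures while the protein stays stored. Such cells normally sit in bone marrow, the skull marrow beside the meninges included.

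The azurophil cells were large by RNA content. Their median depth was 14807, 14702 and 14614 UMIs per cell, against 2394 over all other cells, and their median number of genes was 3246 against 887. The 3 libraries therefore differed little in depth per azurophil cell, but the summed UMIs were 433981, 102575 and 268669, so HC 2 gave the least precise values. The shallowest azurophil cell, of HC 2, had 535 UMIs and the deepest, also of HC 2, had 27246. Mitochondrial genes took a median of 2.24% of their UMIs and 1.56% in other cells. Scrublet marked 0 of the 53 as doublets, which allows a share of up to 5.66%, while it marked 1.92%, 0.940% and 5.19% of all cells of the 3 libraries. No azurophil cell shared its barcode with a cell of another library.

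The threshold cut through a continuous range on 1 side and an almost empty gap on the other. The azurophil cells closest to the 0.5% limit lay at 0.500%, 0.507% and 0.529% of UMIs in the 4 genes, and the nearest cells below it at 0.490%, 0.476% and 0.471%. A further 43 cells lay between 0.25% and 0.5%, of which 25 were in CSD. For *Camp* and *Ngp* the highest azurophil cells reached 1.12% and 0.978%, and the 14 cells that the second limit left out began at 2.04% and 2.09%. All 4 genes were detected in 51 of the 53 cells and 2 of them in the other 2.

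**Figure D1:**
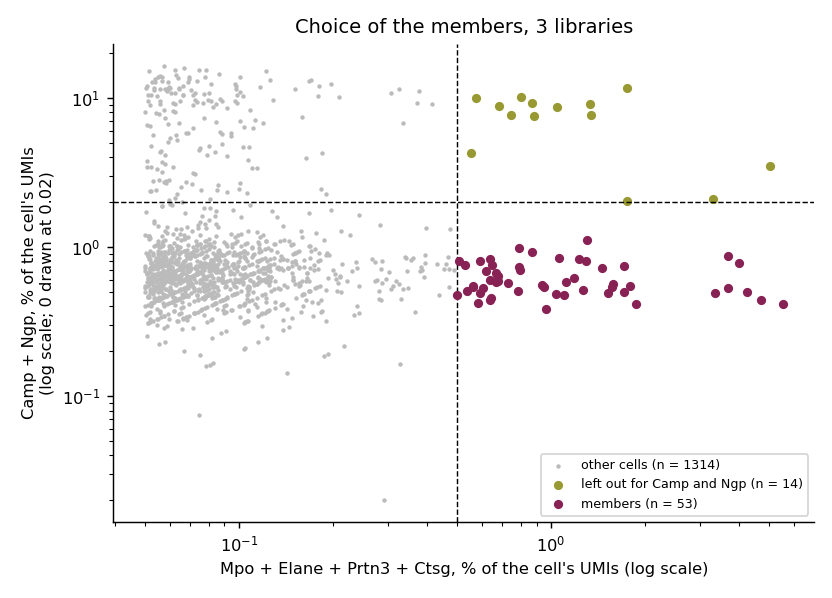
Each point is 1 cell, with the share of its UMIs in *Mpo*, *Elane*, *Prtn3* and *Ctsg* on the x axis and the share in *Camp* and *Ngp* on the y axis, both on log scales and cells under 0.05% on the x axis left out. The dashed lines are the limits of 0.5% and 2%, the 53 members are the azurophil cells, and the 14 cells above the horizontal line were left out for *Camp* and *Ngp*.

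The unit of level is CPM: a gene's UMIs, summed over the cells of a group in a library, per 1000000 UMIs of those cells. *Mpo* (ENSMUSG00000009350), which encodes the peroxidase that makes hypochlorous acid, stood at 3081, 994 and 1593 CPM. *Elane* (ENSMUSG00000020125), neutrophil elastase, stood at 7961, 3695 and 3696 CPM in the same order. For both genes HC 1 was the highest library, and the other HC library was below or level with CSD. *Prtn3* (ENSMUSG00000057729), proteinase 3, stood at 3203, 1833 and 2713 CPM. *Ctsg* (ENSMUSG00000040314), cathepsin G, stood at 2551, 1267 and 2192 CPM. In all 4 genes CSD lay between the HC libraries. Against the mean over all other cells the levels were 33.4-fold higher for *Mpo*, 24.6-fold for *Elane*, 24.2-fold for *Prtn3* and 32.1-fold for *Ctsg*, as the choice of cells demanded.

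Free RNA gave a background in cells that should lack these genes. In NK cells, lymphocytes with no azurophil granules, *Mpo* was at 123, 12.4 and 21.3 CPM, and *Elane* at 172, 24.9 and 76.5 CPM. After thinning every cell to 1000 UMIs, 65.4% of azurophil cells and 3.51% of NK cells had an *Mpo* UMI, from median depths of 14791 and 2336 UMIs, and 80.8% and 7.89% had an *Elane* UMI.

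The part of the label that the rule did not use is *Ms4a3* (ENSMUSG00000024681), a membrane protein gene that marks granulocyte and monocyte progenitors. It was at 829.5 CPM in HC 1, 302 in HC 2 and 555 in CSD, and 44 of the 53 azurophil cells had at least 1 UMI of it. HC 1 was again the highest and CSD lay between the HC libraries. In NK cells it was at 8.19, 18.7 and 8.50 CPM, and after thinning to 1000 UMIs it was seen in 44.2% of azurophil cells and 0.439% of NK cells. The *Fcnb* cells, which are the cells with at least 2 UMIs and 0.1% of UMIs in the neutrophil precursor gene *Fcnb*, held it at 551, 214 and 379 CPM. In the 1292 cells rich in *Camp* and *Ngp* it was at 58.4, 25.8 and 50.1 CPM and in the 555 classical monocytes at 34.9, 11.3 and 20.7 CPM.

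The promoters of the 4 rule genes are shown because these genes were high together in most azurophil cells and came apart in some of them, as described below. The lines give the 250 bases before each gene's start, 5′ to 3′ on the gene's own strand, from RefSeq on GRCm38.p6, the assembly of the mm10 build. They are *Mpo* at chr11:87793534-87793783 on the plus strand, *Elane* at chr10:79886062-79886311 on the plus strand, *Prtn3* at chr10:79879417-79879666 on the plus strand and *Ctsg* at chr14:56102575-56102824 on the minus strand. Capitals mark AGGAAGT, a core bound by ETS factors such as PU.1, and AACGG, the core of MYB sites.
Mpo: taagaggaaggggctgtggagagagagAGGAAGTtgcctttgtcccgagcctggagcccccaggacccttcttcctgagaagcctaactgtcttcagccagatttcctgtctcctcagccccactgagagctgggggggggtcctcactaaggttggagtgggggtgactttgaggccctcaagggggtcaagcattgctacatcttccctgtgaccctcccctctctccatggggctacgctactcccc
Elane: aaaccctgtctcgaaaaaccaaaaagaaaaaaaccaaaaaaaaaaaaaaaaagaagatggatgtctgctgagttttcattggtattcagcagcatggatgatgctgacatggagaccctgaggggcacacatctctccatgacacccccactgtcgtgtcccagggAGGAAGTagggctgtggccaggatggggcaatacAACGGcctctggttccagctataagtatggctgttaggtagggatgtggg
Prtn3: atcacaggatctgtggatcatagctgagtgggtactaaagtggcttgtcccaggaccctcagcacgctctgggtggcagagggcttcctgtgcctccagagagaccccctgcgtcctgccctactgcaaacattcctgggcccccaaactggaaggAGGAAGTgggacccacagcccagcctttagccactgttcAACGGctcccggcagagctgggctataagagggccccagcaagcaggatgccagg
Ctsg: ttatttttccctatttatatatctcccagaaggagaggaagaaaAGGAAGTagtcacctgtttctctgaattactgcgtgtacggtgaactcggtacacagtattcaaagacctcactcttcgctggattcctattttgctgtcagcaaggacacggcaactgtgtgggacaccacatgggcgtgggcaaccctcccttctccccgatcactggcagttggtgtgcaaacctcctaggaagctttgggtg
AGGAAGT, searched on both strands, occurred once in each of the 4, with its first base at -223 in *Mpo*, -84 in *Elane*, -94 in *Prtn3* and -206 in *Ctsg*, counted from the gene start. It was found in 2525 of 32851 mouse promoter windows of the same length, or 7.69%. AACGG occurred in *Elane* at -50 and *Prtn3* at -55 but not in the *Mpo* and *Ctsg* windows, and in 14.5% of all windows. TTGCNNAA, a core of C/EBP sites, was in none of the 4 and in 9.56% of all windows. The *Ms4a3* window, on chromosome 19, held none of these 3 motifs, which did not overlap one another in any window. *Elane* and *Prtn3* are neighbours on chromosome 10, with starts 6645 bases apart. The motifs were chosen after the sequences had been seen, and a match of letters is not a binding site.

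Other azurophil granule and progenitor genes varied more in how far they set these cells apart. *Plac8*, a small cysteine-rich protein gene of early myeloid cells, was at 3588, 3412 and 3547 CPM, 5.01-fold over the mean of other cells. Classical monocytes held it at 1748, 2117 and 2426 CPM and NK cells at 205, 243 and 476, so the azurophil cells were the highest of these groups in every library. *Prss57*, a serine protease gene of the same granules, was at 157, 48.7 and 63.3 CPM, and was seen in 25 of the 53 cells. *Srgn*, the proteoglycan that packs granule proteases, was at 1244, 468 and 897 CPM, with NK cells at 569, 609.9 and 739.5. In HC 2 it was thus lower than in NK cells. Whether NK cells make *Srgn* themselves was not tested, so their level is not read as free RNA. *Lyz2*, lysozyme, was lower than in the other 3 myeloid groups, at 5744, 11348 and 5215 CPM against 28218, 33237 and 27022 in classical monocytes. *Bpi*, on the same list of 18 genes, had no UMI in any azurophil cell, which allows up to 6.91, 29.2 and 11.2 CPM in the 3 libraries.

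Genes of later neutrophil stages were mostly at background. *S100a8* was at 16888, 12508 and 14497 CPM in azurophil cells of HC 1, HC 2 and CSD, and at 16402, 10996 and 14165 in NK cells. Its level in azurophil cells thus sat within reach of that in lymphocytes, while the cells rich in *Camp* and *Ngp* held 180719, 144551 and 169191 CPM. The 19 measured genes of the neutrophil list together took 3.64%, 3.53% and 4.08% of azurophil cell UMIs and 3.58%, 3.21% and 3.99% of NK cell UMIs. *Cebpe*, the transcription factor of the step from promyelocyte to myelocyte, stood above it, at 253, 205 and 104 CPM against 69.6, 99.6 and 85.0 in NK cells and 992, 965 and 1064 in *Fcnb* cells, and so did *Fcnb*. *Ltf*, lactoferrin, was at 364, 429 and 703 CPM in azurophil cells and 483, 560.1 and 727 in NK cells. By the RNA of B cell and fibroblast genes, free RNA amounted to an estimated 19.2%, 27.3% and 19.9% of azurophil cell UMIs.

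**Figure D2:**
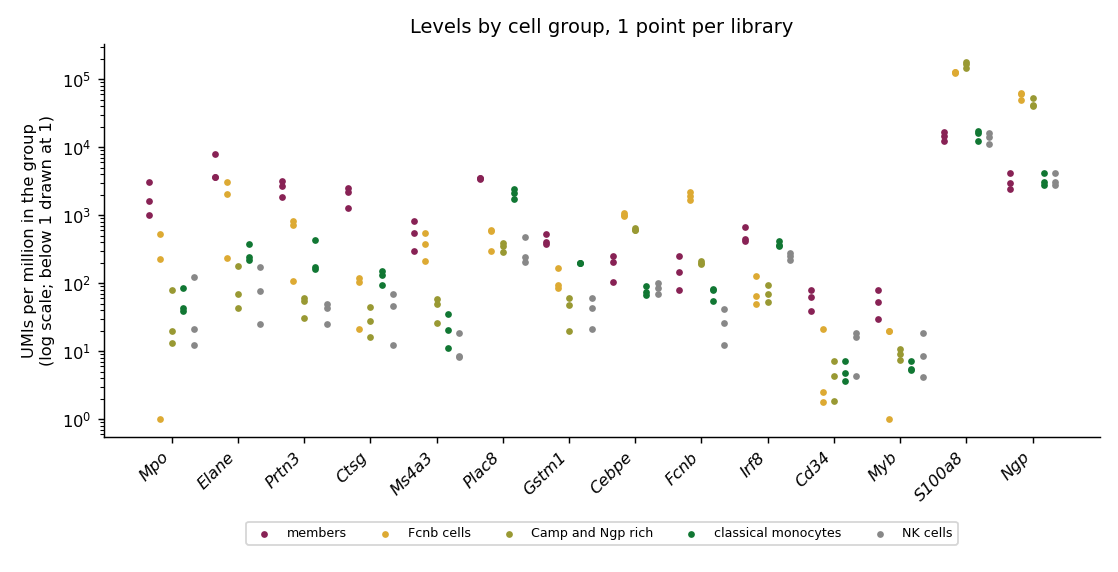
Each point is 1 library's level of a gene in 1 cell group, in CPM on a log scale, with levels below 1 drawn at 1. The azurophil cells (members) hold the highest levels of *Mpo*, *Elane*, *Prtn3*, *Ctsg* and *Plac8*, and sit beside NK cells for *S100a8* and *Ngp*.

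Stem and early progenitor genes were sparse, so the word progenitor rests on a part of the cells. *Cd34*, a surface protein of blood stem and progenitor cells, was at 39.2, 78.0 and 63.3 CPM and at 16.4, 18.7 and 4.25 CPM in NK cells. It thus stood above the NK cells in every library. It was seen in 19 of 53 azurophil cells, in 10 of them with at least 2 UMIs, and after thinning to 1000 UMIs in 3.85% of them against 0.439% of NK cells. *Myb*, which keeps progenitors dividing, was at 80.6, 29.2 and 52.1 CPM and was seen in 23 cells. *Kit*, the stem cell factor receptor, was at 9.22, 9.75 and 11.2 CPM and was seen in 6 cells, with no UMI in NK cells. *Flt3* was seen in 2 cells, both of CSD. Neither receptor was seen in more than 6 of the 53 cells. The whole list of 16 genes took 0.0426%, 0.0497% and 0.0540% of azurophil cell UMIs, near the 0.0410%, 0.0448% and 0.0476% of NK cells. *Cd48* led the list in azurophil cells, at a mean of 151 CPM over the libraries, ahead of *Cd34* at 60.1. The list sum is therefore no measure of *Cd34*, *Myb* or *Kit* alone, and how much of it NK cells make themselves was not tested. With *Cd34* seen in 19, *Myb* in 23 and *Kit* in 6 cells, the label of a progenitor is not borne out for all 53 cells. They are named here by their granule genes.

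The cells were not of 1 kind. Cuts on 3 measures, chosen after the values were seen and applied in the order given, divided them into ranges rather than types. Genes that a cut used are high in its range by that choice, so their levels there are a description. Cells with at least 1% of UMIs in the list of basophil, mast cell and eosinophil genes numbered 7, with 2, 1 and 4. Of the rest, cells with at least 3% of UMIs in the 4 azurophil genes numbered 7, of which HC 1 held 6 and CSD held 1. Cells with at least 0.6% of UMIs in the monocyte and dendritic list numbered 30, as 16, 5 and 9. The remaining 9 cells were spread as 4, 1 and 4. No cell lay between 0.5% and 2% of the basophil list, 3 lay between 2% and 4% of the azurophil genes, and 14 lay between 0.4% and 0.8% of the monocyte list, so only the last cut runs through a crowded range.

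The 7 azurophil-high cells held 3.37% to 5.53% of their UMIs in the 4 genes. *Elane* took 22762 CPM of their summed UMIs, with 170 to 455 UMIs in each cell. *Fcnb* was at 769 CPM and *Cebpe* at 604 CPM in them, against 129 and 109 CPM in the monocyte-list cells. *Cd34*, *Klf4* and *Gata2* had no UMI in these 7 cells, which allows up to 33.0 CPM over their 91030 UMIs. *Ms4a3* was at 2307 CPM and detected in all 7. *Irf8*, a factor that favours the monocyte and dendritic fate, was at 43.9 CPM with at most 2 UMIs in any of these cells.

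The 30 monocyte-list cells made up more than any other range. Their median share of the 4 azurophil genes was 0.757%, and *Elane* stood at 4085 CPM and *Mpo* at 1260.4 CPM. *Irf8* was at 691 CPM with 3 to 30 UMIs in every cell, where the azurophil-high cells had 0 to 2. *Ly6c2*, the Ly6C surface antigen of inflammatory monocytes, was at 2930.5 CPM, beside 2175 in azurophil-high cells. *Ms4a6c* was at 659, *F13a1*, a coagulation factor made by monocytes, at 416 and *Klf4*, a factor of monocyte maturation, at 117. All of these genes belong to the list whose share chose the monocyte-list cells. *Ms4a3* was at 328 CPM and seen in 23 of 30. Classical monocytes, which both genes helped to choose, had *Ms4a6c* at 1176, 1082 and 1226 CPM and *F13a1* at 629, 543 and 683. The monocyte-list cells thus held less of both than the monocytes. *Kit* and *Flt3* had no UMI in the 30 cells, which allows up to 5.85 CPM.

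**Figure D3:**
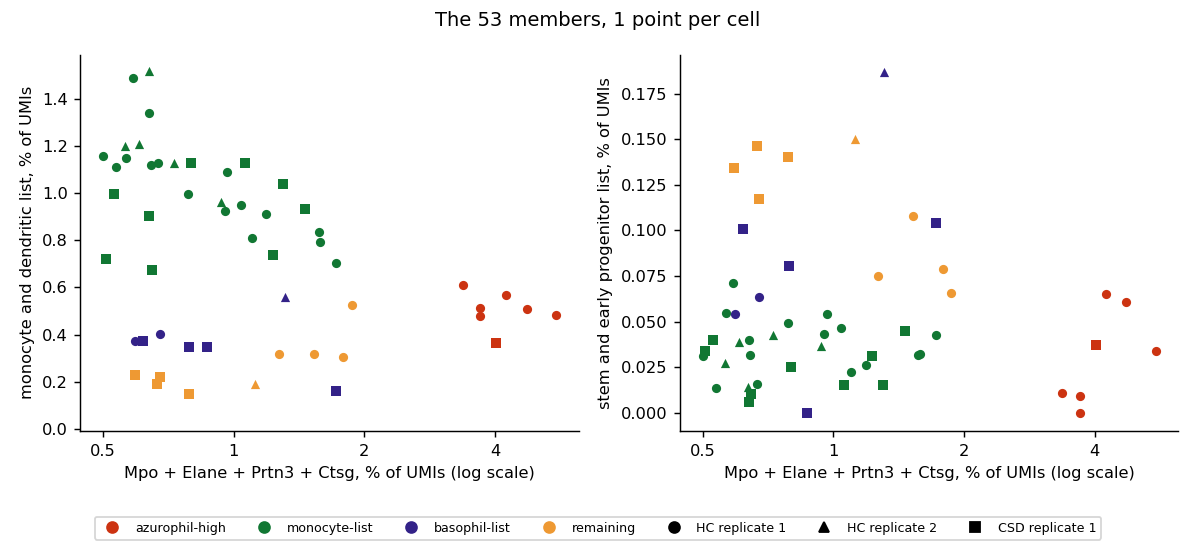
Each point is 1 of the 53 azurophil cells, coloured by range and shaped by library, with the share of UMIs in the 4 azurophil genes on a log x axis. The y axes are the shares of UMIs in the monocyte and dendritic list (left) and the stem and early progenitor list (right), where the remaining cells lie at 0.0655% to 0.150% and the azurophil-high cells at 0 to 0.0654%.

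The 7 basophil-list cells carried 2.54% to 15.8% of their UMIs in the 13 genes of that list. In 6 of them the genes were *Mcpt8* and *Prss34*, the proteases of mouse basophils, with 18 to 343 *Mcpt8* UMIs and 42 to 752 *Prss34* UMIs per cell. Among the genes of the rule, *Mpo* had 3 to 32 UMIs, *Ctsg* 4 to 49 UMIs and *Elane* 0 to 5 UMIs in these 6 cells. *Mpo* and *Ctsg* thus stood with little or no *Elane* in them, while in the other ranges *Elane* had at least 3 UMIs in each cell, so the counts overlap at the low end. *Cpa3*, carboxypeptidase A of mast cells and basophils, was at 1922 CPM over the range and *Fcer1a*, a chain of the IgE receptor, at 1052 CPM in 5 cells. *Gata2*, a factor of the basophil and mast cell lineages, was at 218 CPM and was seen in 4 cells. The 7th cell, of CSD, instead had 171 UMIs of *Prg2* and 43 of *Prg3*, eosinophil granule protein genes, beside 67 of *Elane* and 40 of *Mpo*. The HC 2 cell is the one with 535 UMIs in all.

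The remaining 9 cells held the early genes. *Cd34* was at 198 CPM and seen in 8 of the 9, *Kit* at 47.8 CPM in 5, *Myb* at 164 CPM in 8 and *Flt3* at 20.5 CPM in 2. Their median share of the stem and early progenitor list was 0.117%, against 0.0339% in azurophil-high and 0.0319% in monocyte-list cells. These 4 genes define early progenitors, and in the other ranges each was seen in a smaller part of the cells. *Mpo* was at 3242 CPM and *Elane* at 3986 CPM in the 9 cells. *Cpa3* was at 253 CPM in 5 of these cells, and *Fcer1a* had no UMI. The ribosome biogenesis list was also highest here, at a median of 0.576%, with *Npm1*, nucleophosmin, at 1857 CPM against 868 in azurophil-high and 1039.9 in monocyte-list cells.

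Genes of growth ran high in azurophil cells as a whole, as a description of cells chosen on the same data. Among the 20 genes with the largest ratio over other cells, after the 5 markers and the basophil genes *Cpa3*, *Mcpt8* and *Prss34*, stood the DNA replication genes *Mcm6* (5.22-fold), *Mcm5* (4.63-fold), *Tyms* (4.36-fold) and *Rrm2* (3.83-fold), *Cdca7* (5.20-fold), the centromere gene *Cenpw*, the ribosome assembly gene *Gar1*, and the enzymes *Gstm1*, *Idh2* and *Phgdh*. *Mcm6*, a subunit of the replicative helicase, was at 131, 146 and 100.5 CPM. It was at 11.6, 16.0 and 10.2 CPM in the cells rich in *Camp* and *Ngp*. The 22 S phase genes took 0.210%, 0.239% and 0.209% of azurophil cell UMIs, above the 0.0613%, 0.108% and 0.112% of classical monocytes and the 0.188%, 0.105% and 0.135% of *Fcnb* cells in every library.

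Mitosis, ribosome and secretion genes showed the same order against mature cells. The 22 genes of G2 and M phase took 0.199%, 0.363% and 0.284% of azurophil cell UMIs and 0.164%, 0.169% and 0.244% in classical monocytes. *Top2a*, the topoisomerase of dividing cells, was at 182, 361 and 234 CPM, and after thinning every cell to 2000 UMIs it was seen in 28.8% of azurophil cells, 30.9% of *Fcnb* cells, 17.4% of classical monocytes and 9.85% of cells rich in *Camp* and *Ngp*. Ribosome biogenesis genes took 0.356%, 0.284% and 0.384% of azurophil cell UMIs, against 0.159%, 0.185% and 0.175% in classical monocytes and 0.236%, 0.300% and 0.245% in NK cells, so HC 2 did not exceed its NK cells. Genes of folding and secretion in the endoplasmic reticulum took 0.628%, 0.512% and 0.665% in azurophil cells and 0.361%, 0.397% and 0.472% in classical monocytes. *Calr*, calreticulin, was at 712, 565 and 834 CPM and, at 2000 UMIs per cell, in 71.2% of azurophil cells and 40.2% of classical monocytes. Among the ranges the median of that list was 1.07% in basophil-list cells and 0.549% in monocyte-list cells.

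**Figure D4:**
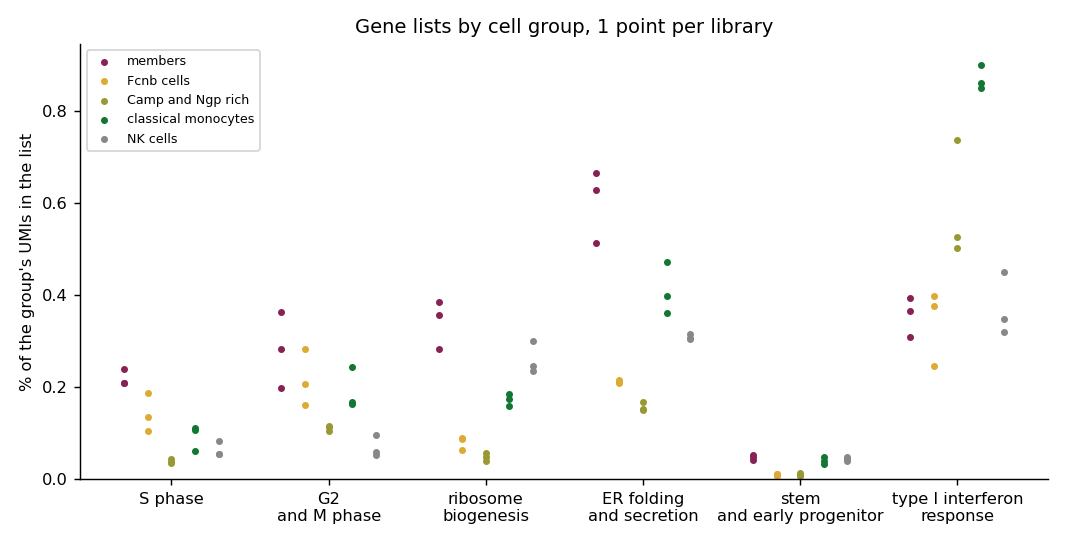
Each point is the share of UMIs that a gene list took in 1 cell group of 1 library, in percent. The azurophil cells (members) are the highest of the 5 groups in every library for S phase and for folding and secretion in the endoplasmic reticulum, at 0.209% to 0.239% and 0.512% to 0.665%, and do not separate from NK cells for stem and early progenitor genes.

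*Spi1* stood above NK cells in azurophil cells and *Irf8* near classical monocytes, but the transcription factor list as a whole did not stand high. Its 21 measured genes took 0.178%, 0.224% and 0.164% of azurophil cell UMIs. NK cells gave 0.192%, 0.207% and 0.201%, and classical monocytes 0.209%, 0.218% and 0.203%. *Spi1*, which encodes PU.1, was at 362, 399.7 and 342 CPM, against 176, 93.3 and 136 in NK cells. *Irf8* was at 454, 663 and 417 CPM, near the 353, 419 and 365 CPM of classical monocytes and above the 64.8, 129 and 50.0 CPM of *Fcnb* cells. By range it was at 691 CPM in monocyte-list cells, 123 in the remaining cells, 43.9 in azurophil-high cells and 18.1 in basophil-list cells. *Csf2ra*, a chain of the GM-CSF receptor, was at 71.4, 68.2 and 85.6 CPM, and *Csf3r*, the G-CSF receptor, at 20.7, 9.75 and 18.6 CPM, with NK cells at 36.9, 12.4 and 38.3 CPM for the latter. *Cxcr2*, the receptor through which mature neutrophils leave the marrow, was at 11.5, 9.75 and 18.6 CPM against 16.4, 18.7 and 4.25 in NK cells. The receptors of mature neutrophils thus stood close to the background. *Ifnar1* and *Ifnar2*, the chains of the type I interferon receptor, were at 6.91, 0 and 7.44 CPM and at 76.0, 68.2 and 63.3 CPM.

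The share of azurophil cells in CSD lay between the HC libraries. It was 1.08% in HC 1 (exact Clopper-Pearson 95% interval 0.717 to 1.55), 0.411% in HC 2 (0.166 to 0.846) and 0.653% in CSD (0.388 to 1.03). The intervals cover counting error alone. CSD minus the HC mean was -0.0912 percentage points, against an SD of 0.471 between the HC libraries, so the difference was smaller than the spread. A 1 against 2 design cannot give an exact permutation p below 0.333, and none was computed. With HC 2 alone as control the difference was 0.242 points and with HC 1 alone it was -0.424, so its sign rests on which HC library is used. With the limit at 0.25% the share in CSD was 1.56%, beside 1.54% and 0.764% in HC. Of azurophil cells, *Fcnb* cells, cells rich in *Camp* and *Ngp* and classical monocytes together, azurophil cells made up 4.34%, 1.56% and 1.98%. Neutrophils outside these groups were not counted there.

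Whether defeat changed gene expression was tested on the UMIs summed over the azurophil cells of each library. It used edgeR (quasi-likelihood, two-sided) over 6174 genes seen in more than 15% of the azurophil cells, at a threshold of 0.05 after Benjamini-Hochberg adjustment. The spread came from the HC libraries alone (1 residual degree of freedom) and was taken to hold for the CSD library too, so the p-values measure the spread between these pools only. The test called 6 genes, or 0.0972% of those tested. *Ifitm1*, *Mcpt8*, *Prss34* and *Hbb-bt* were higher in CSD (0.0648%), and *Mgp* and *H2-Eb1* were lower (0.0324%). Without adjustment 257 genes, or 4.16%, had a p under 0.05. DESeq2 called 0 genes, with 15 at an unadjusted p under 0.05. Over all tested genes the median log2 fold change was -0.01.

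*Ifitm1*, an interferon-inducible membrane protein gene that stem and progenitor cells also express, was at 48.4 CPM in HC 1, 58.5 in HC 2 and 331 in CSD. It rose by 2.70 on the log2 scale (SE 0.37, adjusted p = 3.85e-09 by edgeR). With the azurophil limit at 1% the value was 1.68 (adjusted p = 0.998), and with each cell thinned to 2000 UMIs it was 1.50 (adjusted p = 0.972), so it was not called under either. It was seen in 13 of 28, 5 of 7 and 15 of 18 azurophil cells, with highest counts of 6, 2 and 22 UMIs. Of the 89 UMIs in CSD, the 4 remaining cells held 45 (770.4 CPM against 54.5 and 68.0 in HC) and the 9 monocyte-list cells held 31 (186 CPM against 38.7 and 57.2), of which 22 lay in 1 cell. *Ifitm1* was also higher in CSD in other cells and in free RNA, at 20.5, 24.9 and 97.8 CPM in NK cells (log2 2.15, adjusted p = 0.121 by edgeR on the NK sums), 48.7, 42.5 and 129 CPM in classical monocytes and 75.8, 79.4 and 349 CPM in barcodes of at most 100 UMIs. With free RNA subtracted the log2 fold change in azurophil cells was 2.82 (adjusted p = 3.38e-05). In monocyte-list cells alone it was 2.08 (adjusted p = 0.0645).

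*Mcpt8* and *Prss34* rose together. *Mcpt8* was at 936 CPM in HC 1, 312 in HC 2 and 2747 in CSD (log2 2.08, SE 0.36, adjusted p = 2.07e-05 by edgeR). *Prss34* was at 1979, 458 and 5434 CPM (log2 2.11, SE 0.39, adjusted p = 9.53e-05). The UMIs lay in few cells. The 2 basophil-list cells of HC 1 held 381 of its 406 *Mcpt8* UMIs, the lone one of HC 2 held 18 of 32, and the 4 of CSD held 713 of 738. Without the 7 basophil-list cells, an alternative chosen after seeing the data, the log2 fold change was 0.34 for *Mcpt8* and 0.74 for *Prss34* (both adjusted p = 0.993). With HC 2 alone as control the *Mcpt8* value was 3.22, and with HC 1 alone it was 1.52, with no test. For *Prss34* these values were 3.66 and 1.43. Both genes thus kept their direction against either HC library. *Prg2*, not tested since it was seen in 2 cells, was at 2.30, 0 and 636 CPM, with 171 UMIs in the 1 CSD cell named above.

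The other 3 called genes belong to red cells, fibroblasts and antigen-presenting cells. *Hbb-bt*, a beta globin gene, was at 196, 312 and 699.7 CPM and rose by 1.58 on the log2 scale (SE 0.33, adjusted p = 0.00238 by edgeR). *Mgp*, matrix Gla protein, was at 283, 429 and 55.8 CPM and fell by 2.56 on the log2 scale (SE 0.42, adjusted p = 4.54e-06). *H2-Eb1*, a class II histocompatibility chain, was at 452, 273 and 115 CPM and fell by 1.70 on the log2 scale (SE 0.38, adjusted p = 0.00838). In none of the 3 did HC and CSD overlap, as was so for 32.7% of all tested genes with CSD above both HC libraries and 30.1% with CSD below both. Other globin RNA was widespread, with *Hbb-bs* at 765, 1482 and 2323 CPM and *Hba-a1* at 422, 858 and 1087 CPM, each seen in 52 azurophil cells. The erythroid transcription factor genes *Klf1* and *Gata1* were seen in 1 and 3 of the cells. NK cells gave *Hbb-bt* at 246, 417 and 744 CPM (log2 1.25, adjusted p = 0.0121) and *Mgp* at 233, 367 and 29.8 CPM (log2 -3.22, adjusted p = 4.03e-07), levels like those of azurophil cells. In barcodes of at most 100 UMIs *Hbb-bt* was at 628, 1783 and 3940.3 CPM, *Mgp* at 1686, 1353 and 572 and *H2-Eb1* at 1745, 1659 and 781. All 3 moved there in the same direction as in azurophil cells, and the part of free RNA in the azurophil cell values was not tested beyond its subtraction. The subtraction took each library's estimated free RNA from its summed UMIs and set counts that fell below 0 to 0. With free RNA subtracted in this way the *Hbb-bt* value was -6.83 (adjusted p = 0.0374) and *Mgp* was not called (log2 -5.03, adjusted p = 0.998). Fold changes of this size can come from libraries set to 0. For these 3 genes the sign and call after subtraction are therefore not read. *H2-Eb1* in NK cells was at 1724, 392 and 905 CPM (log2 -0.21, adjusted p = 0.996), and in azurophil cells its adjusted p was 0.0583 with library totals in place of TMM. Over the alternatives with a test the adjusted p ran from 3.85e-09 to 1.00 for *Ifitm1*, from 2.59e-06 to 1.00 for *Mcpt8*, from 8.76e-07 to 1.00 for *Prss34*, from 0.00238 to 1.00 for *Hbb-bt*, from 4.54e-06 to 1.00 for *Mgp* and from 0.00135 to 1.00 for *H2-Eb1*.

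**Figure D5:**
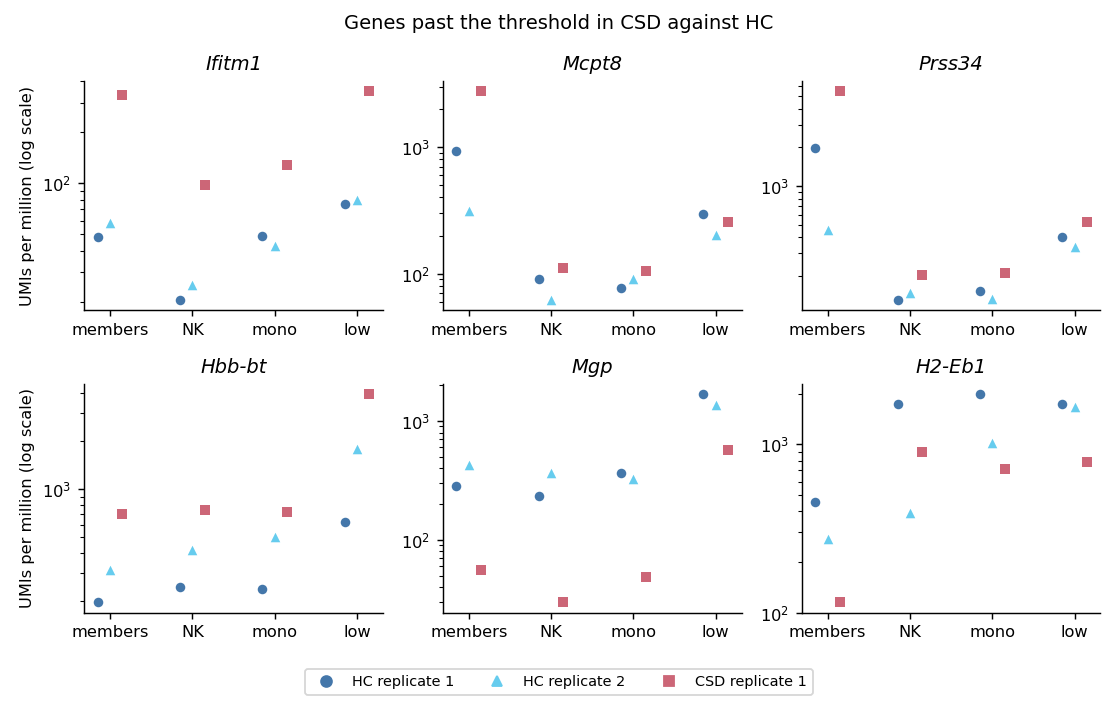
Each panel gives 1 called gene in CPM on a log scale, 1 point per library, in the azurophil cells (members), NK cells, classical monocytes (mono) and barcodes of at most 100 UMIs (low). *Hbb-bt* and *Mgp* move between libraries in NK cells and monocytes as in the azurophil cells, while *Mcpt8* and *Prss34* reach 2747 and 5434 CPM in CSD in the azurophil cells alone of these groups.

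The granule genes outside the rule held no called gene. Of 13 such genes of the azurophil list that were tested 0 were called, with a median log2 fold change of -0.10, which was 0.42 without HC 1, and *Ms4a3* had -0.10 (SE 0.34, adjusted p = 1.00 by edgeR). CSD lay above both HC libraries in 2 of the 13 and below both in 1, beside 32.7% and 30.1% of all tested genes. Of 9 stem and early progenitor genes, 16 transcription factors and 11 receptors tested, 0 were called, with medians of 0.23, -0.14 and 0.29. The nearest lineage genes were *Fcnb*, at 249, 146 and 78.2 CPM (log2 -1.43, adjusted p = 0.150), and *Cebpe* (log2 -1.16, SE 0.38, adjusted p = 0.345). Most *Fcnb* UMIs of HC 1 lay in its 6 azurophil-high cells, with 70 UMIs at 902 CPM, and HC 2 had no such cell.

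Lists of growth likewise held no called gene. The 21 S phase, 22 G2 and M phase, 17 ribosome biogenesis and 17 endoplasmic reticulum genes tested had medians of -0.01, 0.13, 0.07 and 0.24 on the log2 scale. In the endoplasmic reticulum list CSD lay above both HC libraries in 11 of 17 genes and below both in 1, beside 32.7% and 30.1% of all tested genes. In the neutrophil list without *Camp* and *Ngp*, with a median of 0.34 over 16 genes and 0 called, CSD lay above both in 8 and below both in 2, beside the same background. That median was -0.02 at 2000 UMIs per cell, so its direction did not hold. It was -1.86 with free RNA subtracted, where counts below 0 were set to 0. *Ltf* was among the 16 (log2 0.88, SE 0.33, adjusted p = 0.672). In the monocyte and dendritic list CSD lay below both HC libraries in 12 of 18 genes, beside 30.1% of all tested genes, with a median of -0.36 and 0 called. That median was -0.41 with free RNA subtracted and -0.27 in monocyte-list cells alone. The list also stood lowest in CSD in all other cells (1.03%, 0.944% and 0.739% of UMIs) and in barcodes of at most 100 UMIs (1.08%, 0.915% and 0.740%). In NK cells CSD lay between (0.555%, 0.333% and 0.379%). Monocyte-list cells were 16 of 28, 5 of 7 and 9 of 18. The part of free RNA and of this mix was not tested.

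Type I interferon genes were represented by 14 of 27 genes tested. Only *Ifitm1* was called, and the median was 0.39, with CSD above both HC libraries in 9 of the 14, beside 32.7% of all tested genes. *Ly6e* and *Ifitm2*, among the most abundant genes of the list at means of 1091 and 689.6 CPM over the libraries, were not called. *Ifitm3* was at 677, 926 and 934 CPM (log2 0.29, SE 0.35, adjusted p = 1.00) and *Ifitm6* at 230.4, 273 and 365 CPM (log2 0.60, SE 0.33, adjusted p = 1.00). The signalling factor *Irf7* was seen in 11 cells, at 9.22, 19.5 and 22.3 CPM, and *Isg15* in 11, at 16.1, 9.75 and 14.9 CPM. The whole list took 0.309%, 0.365% and 0.393% of azurophil cell UMIs and 0.349%, 0.319% and 0.449% in NK cells. Glucocorticoid response genes (10 tested, median -0.11) and immediate early and heat shock genes (13 tested, median 0.06) had 0 calls. *Fkbp5*, a glucocorticoid target, was at 13.8, 39.0 and 44.7 CPM (log2 1.20, SE 0.72, adjusted p = 1.00).

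Markers of cells outside this lineage moved with the groups. The 12 erythroid and megakaryocyte genes took 0.171%, 0.312% and 0.493% of azurophil cell UMIs, and 0.214%, 0.337% and 0.540% in NK cells. All 5 tested lay above both HC libraries in CSD, beside 32.7% of all tested genes, with a median log2 fold change of 1.14. With free RNA subtracted, where counts below 0 were set to 0, the median was -7.75, and its sign is not read. Border macrophage and class II genes took 0.596%, 0.388% and 0.202%, with CSD below both HC libraries in 8 of 9, beside 30.1% of all tested genes. In NK cells they took 1.66%, 0.390% and 0.803%, so CSD was not below both there. The highest azurophil cell, of HC 1, had 2.14% of its UMIs in this list. For *H2-Eb1* the highest cell of HC 1 held 41 of that library's 196 UMIs and the next held 12. Fibroblast and endothelial genes took 0.0525%, 0.0682% and 0.0115%, against 0.0479%, 0.0610% and 0.00935% in NK cells, with 3 of 4 below both, beside the same 30.1%. B lineage and T and NK genes had 6 and 2 tested and 0 called, with medians of -0.04 and -0.10.

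Whether defeat acted differently on azurophil cells than on the cells rich in *Camp* and *Ngp* was tested as an interaction in edgeR over 6 sums, with library as a block. For this test the second group was every cell with at least 2% of UMIs in *Camp* and *Ngp*, *Fcnb* cells past that limit included. The CPM values given beside it for cells rich in *Camp* and *Ngp* leave the *Fcnb* cells out. It called 4 of 6216 genes (0.0644%). With the genes of the rule left out, *Elane* among the 4, the count was 3 of 6210 (0.0483%), and only these 3 are read. *Lyz2* was at 5744, 11348 and 5215 CPM in azurophil cells of HC 1, HC 2 and CSD and at 17441, 19338 and 20553 CPM in the cells rich in *Camp* and *Ngp*. The effect in azurophil cells minus that in the others was -0.93 on the log2 scale (SE 0.20, adjusted p = 0.00444). *Ltb4r1*, the leukotriene B4 receptor, was at 111, 175 and 37.2 CPM and at 262, 344 and 376 CPM, a difference of -2.29 (SE 0.48, adjusted p = 0.00444). The 2 genes thus stood lower in CSD than in HC azurophil cells, relative to the cells rich in *Camp* and *Ngp*. For *Lyz2*, HC 1 and CSD lay close together and HC 2 stood apart. By range *Lyz2* was at 7861 CPM in monocyte-list cells and 3592 CPM in azurophil-high cells. HC 2 held 5 monocyte-list and 0 azurophil-high cells among its 7, and the part of this mix in the difference was not tested. In azurophil cells alone the change of *Ltb4r1* was not called (log2 -1.77, SE 0.50, adjusted p = 0.165). *Mcpt8* differed by 1.38 (SE 0.29, adjusted p = 0.00444), with the cells rich in *Camp* and *Ngp* at 98.5, 79.0 and 136 CPM. Basophil-list cells held 381 of 406, 18 of 32 and 713 of 738 of its UMIs in azurophil cells. The interaction was not run without them, so their number is not separated from a change within cells. With library totals in place of TMM, and with DESeq2, 0 genes were called, and library totals moved the median over all genes from -0.05 to 0.16.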

How the data were processed

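Meningeal cells of 2 HC pools and 1 CSD pool were profiled by 10x 3′ sequencing. The authors deposited raw UMI counts per gene and barcode (27998 genes), made with Cell Ranger 2 on mm10 per the submitters' processing notes, with no cell calling, filtering or normalization. Barcodes were assigned to libraries by their final number, which the labels give as the group number. Here cells were chosen by the limits given in the report. The study called cells with emptyDrops and compared cells by a Mann-Whitney test, which was replaced because cells are not replicates: UMIs were summed per library and tested with edgeR 4.0.16 in R 4.3.3 (glmQLFit, glmQLFTest, TMM). Azurophil cells and gene lists were chosen with earlier results of these data known.

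Depth was 433981, 102575 and 268669 UMIs summed over azurophil cells, so 3 counts correspond to 6.91, 29.2 and 11.2 CPM. Comparison groups were *Fcnb* cells, other cells with at least 2% of UMIs in *Camp* and *Ngp*, classical monocytes (at least 3 of *Ly6c2*, *Ccr2*, *F13a1* and *Ms4a6c*, together at least 0.2% of UMIs) and NK cells (at least 2 of *Ncr1*, *Klrb1c*, *Klre1* and *Klrd1*, without *Cd3e*). From the NK cells, 2 with at least 1% basophil-list or 2% erythroid-list UMIs were left out after seeing the values. Genes named one by one were drawn from the markers, the 4 most abundant or any called genes of each of 21 lists, the largest called changes and the 20 leading genes. Not every such gene is named. Others of the lists are named to describe a range, chosen after their values were seen. Those outside the lists are *Ltb4r1*, called in the interaction, and leading genes. *Cebpd*, *Itgam*, *Ighm* and *Trbc2* had no entry by that symbol. Doublets were marked with Scrublet (scanpy 1.11.5, Python 3.11.15), in CSD as the top 5.1% of scores since the automatic threshold marked 0.109%, and kept in the main analysis. Alternatives were DESeq2 1.42.0, library totals, no filter on how many cells show a gene, other rule thresholds, thinning to 2000 UMIs, subtraction of free RNA, other denominators and depth limits, leaving out each HC library and, added after seeing the data, leaving out basophil-list cells or keeping monocyte-list cells alone. The statistical scripts were tested on simulated data.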

Additional observations from a re-analysis of the deposited data

Results flagged for a closer look

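The interaction test set the effect of CSD in azurophil cells against that in all cells with at least 2% of UMIs in *Camp* and *Ngp*. It singled out 3 genes that the rule did not use, because their estimated effects differed between the cell groups. Each library held its own mix of ranges, and the part of that mix in these effects was not tested. Most *Mcpt8* UMIs of the azurophil cells lay in basophil-list cells in each library. For *Lyz2* the difference was -0.93 on the log2 scale, for *Ltb4r1* -2.29 and for *Mcpt8* 1.38 (each adjusted p = 0.00444 by edgeR). With HC 2 alone as control the differences were -1.26, -2.28 and 2.34, and with HC 1 alone -0.51, -2.11 and 0.97, with no test. With library totals the adjusted p-values were 0.554, 0.206 and 0.150, and with DESeq2 1.00 for each.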

How the results depend on the processing

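Leaving out Scrublet-marked cells could not change the 6 called genes, since no azurophil cell was marked. The count of 6 called genes was 5 with library totals and 4 with no filter on how many cells show a gene. It was 0 at an azurophil limit of 1% (56 at an unadjusted p under 0.05), 0 at 2000 UMIs per cell (62), 0 with DESeq2 (15), 21 with free RNA subtracted, 3 without basophil-list cells and 2 with monocyte-list cells alone. The count of 4 in the interaction was 0 with library totals (332 at an unadjusted p under 0.05) and 0 with DESeq2 (10). The sign turned for *Hbb-bt* with free RNA subtracted, at -6.83 on the log2 scale. Counts below 0 were set to 0 there, so that sign is not read. Direction also turned at an azurophil limit of 1% for *Mcpt8* at -1.96 and *Prss34* at -2.45. At that limit 2 of the 7 basophil-list cells remain, 1 in HC 2 and 1 in CSD. Over single named genes and alternatives, 22 tested values kept direction and call, 37 kept direction and lost the call and 3 reversed. Of 20 values with an HC library left out, which have no test, 9 lay within the SE and 11 moved. Of list medians 153 stayed within the spread and 67 moved. The spread was the SD of the 2 medians with an HC library left out, and these 2 were scored against it too. It was wide for azurophil granule genes (0.42 and -0.47) and narrow for S phase genes (-0.00 and -0.05). The tally is therefore no measure of robustness. The tallies of tested values and list medians include the setting without Scrublet-marked cells, which repeats the main values. The medians of 14 of 20 lists changed sign under at least 1 alternative. No call was the same under every alternative.

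The share difference was 0.409 percentage points at a limit of 0.25%, and -0.424 to 0.242 when each HC library was left out in turn. It was -0.972 among azurophil cells, *Fcnb* cells, cells rich in *Camp* and *Ngp* and classical monocytes only. The shares moved to 1.56% in CSD at 0.25%, to 0.616%, 0.118% and 0.218% at 1%, and to 4.34%, 1.56% and 1.98% among those groups. The cause of these changes was not tested. No paired analysis was done, since the labels pair no HC pool with the CSD pool. Depth limits HC 2 most, where 7 cells and 102575 UMIs stand for a group of 4 mice.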
